A study of Danio rerio with 6 samples.

Results

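The neural crest specifier genes are 10 zebrafish genes, picked by name from the 31953 genes of the deposited table: *sox10*, *foxd3*, *tfap2a*, *sox9a*, *sox9b*, *snai1b*, *snai2*, *twist1a*, *dlx2a* and *phox2bb*. Each name matched 1 row. RNA was sequenced from whole zebrafish embryos at 30 hpf, in 3 libraries of F0 *dancr* crispants and 3 of mock control embryos. The crispants had been injected at the single cell stage with Cas9 and a pool of guide RNAs against the promoter of *dancr*, a long non-coding RNA gene, and the mock controls received a mix made without the guides to *dancr*. F0 crispants are mosaic for the deletion, and those sequenced were pools of the Class I and Class II embryos, classes with severe trunk and tail defects and necrosis. The paper also describes smaller heads in Class I, in which the anterior brain and eyes were still formed. It describes Class II as underdeveloped in general and without somite patterning. The methods name wild type AB as the strain used unless stated and give about 30 embryos in each group, without saying whether that holds for each library.

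Neural crest cells arise at the border of the neural plate, leave it by an epithelial to mesenchymal transition and migrate to form pigment cells, peripheral neurons and glia, and much of the skeleton of the face. Specifier genes encode the transcription factors that mark these cells and switch on the programmes for migration and for each fate. Most of them are active in other tissues of the embryo too, among them the ear, the forebrain, the hindbrain, the epidermis, the somites and cartilage. In whole embryos, fewer crest cells and less RNA per cell cannot be told apart, nor can crest expression be told apart from that of these other tissues.

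No specifier gene differed between crispants and mock controls past the threshold, which asked for a log2 fold change of 1 or more, up or down, and for a p of 0.05 or less after Benjamini-Hochberg adjustment over the 20812 genes tested by quasi-likelihood in edgeR. Of the 10 genes, 9 were tested, with 94 to 5938 counts in a library, and 1, *foxd3*, had no counts. The test called 0 genes of the whole table, a percentage of 0, so that 0 calls among 9 genes says nothing particular to them. At an unadjusted p below 0.05 it held 1142 of all genes, or 5.49%, and 1 of the 9, *phox2bb*. DESeq2 called 160 genes, or 0.769%, and 0 of the 9, and held 6.58% of all genes at an unadjusted p below 0.05. limma-voom called 0 genes, or 1.56% once libraries were weighted by quality, and without mock control replicate 3 edgeR called 0.0935% and DESeq2 1.41%, none of them a specifier gene. The median log2 fold change of the 9 genes was -0.13, beside -0.04 over all genes tested. Of the 9, 3 were above 0, beside 45.54% of all genes tested. Leaving out mock control replicate 3, a library that stood apart from the rest, the median of the 9 was -0.26, beside 0.01 over all genes. Of the 9, 1 was then above 0, beside 51.15% of all genes. The 3 crispant libraries lay wholly apart from the 3 mock control libraries for *sox10*, which was higher, and for *dlx2a* and *phox2bb*, which were lower. Over all genes tested, 11.9% had groups that did not overlap, 6.5% with the crispants higher and 5.44% with the crispants lower.

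Mock control replicate 3 stood apart from the other 5 libraries. Its TMM factor, edgeR's scaling of the library total, was 0.749 against 0.988 to 1.14, and 33.4% of its counts fell on its top 100 genes, where the others had 24.2% to 26.9%. Total counts on genes ran from 33841805 to 40515803 per library. Its deviation from the mean of mock control replicates 1 and 2, in log2 CPM (counts scaled to a common library total), had an SD of 1.28 over 20441 genes. Values without this library are given beside the results for the specifier genes. No 2 libraries of a group agreed within sampling noise. No row of the table bears the name *dancr*. The snoRNAs *snora26* and *snora27* are embedded in the *dancr* locus, and their rows were looked up by name, not by position. A row named SNORA26 (ENSDARG00000085485) held 22, 8 and 16 counts in mock controls and 0, 7 and 4 counts in crispants, a low count from polyA selected RNA. Another row named SNORA26 (ENSDARG00000103384) was at 0 in all 6 libraries. The SNORA27 row held 0, 0 and 0 counts in mock controls and 1, 0 and 0 in crispants. Which SNORA26 row lies in the locus was not checked. The paper reports fewer reads in crispants over most of the *dancr* locus, the last exon excepted. By RT-qPCR it reports significantly lower *dancr*, *snora26* and *snora27*.

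**Figure D1:**
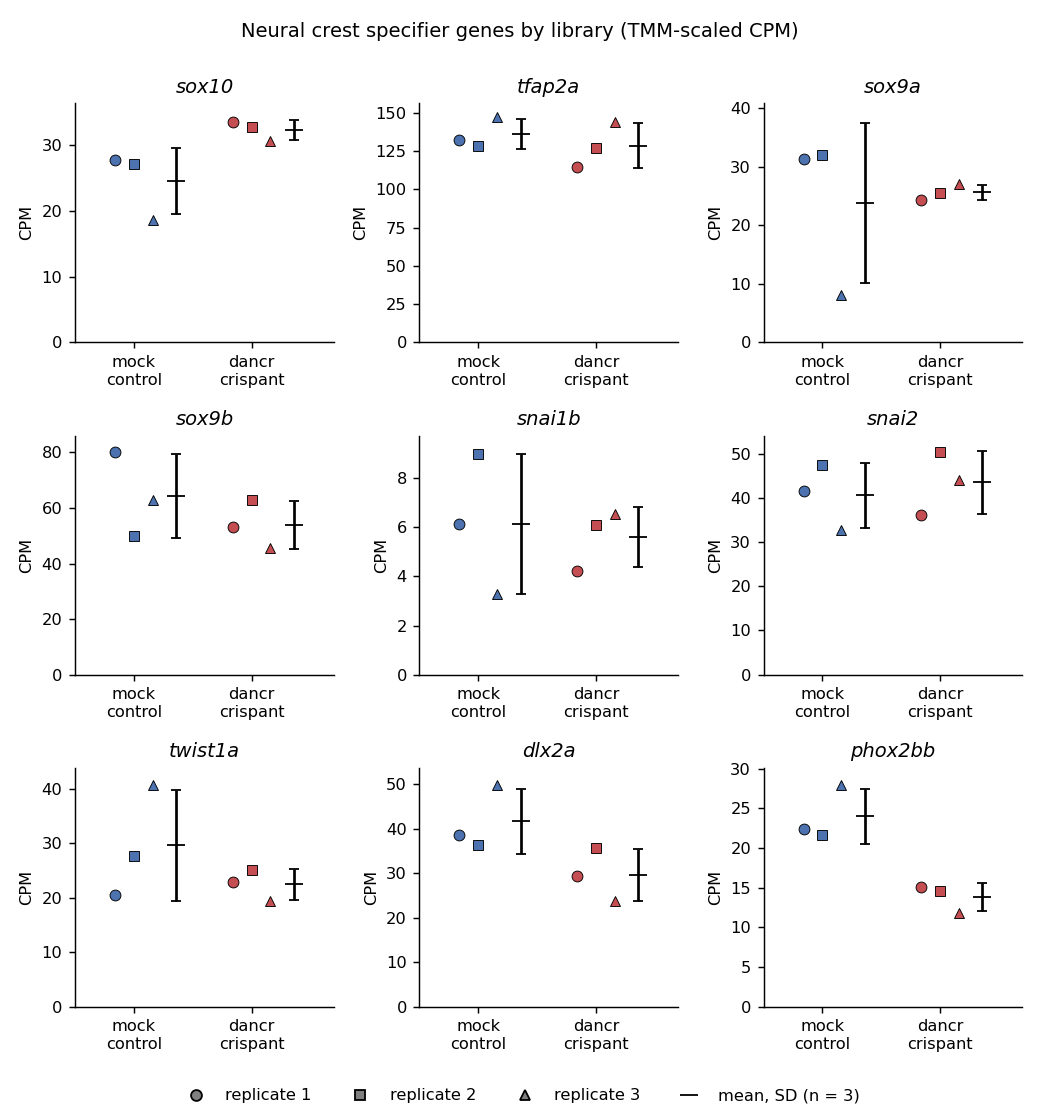
Expression of the 9 specifier genes with counts, in TMM-scaled CPM on linear axes that start at 0, with 1 point per library and the mean and SD of 3 libraries beside it. The groups do not overlap for *sox10*, *dlx2a* and *phox2bb*, and mock control replicate 3 is the lowest library for *sox10*, *sox9a*, *snai1b* and *snai2*.

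*phox2bb* (ENSDARG00000091029, minus strand of chromosome 14 of GRCz10, 16759662 to 16763059) encodes a homeodomain factor needed for the autonomic and enteric neurons that the crest gives rise to, and is also expressed in hindbrain motor neurons. It was at 22.4, 21.6 and 27.9 CPM in mock control replicates 1, 2 and 3 and at 15.1, 14.6 and 11.8 CPM in crispant replicates 1, 2 and 3. All 3 crispant libraries were below all 3 mock control libraries. The means were 24.0 ± 3.42 and 13.8 ± 1.75 CPM (SD, n = 3 each). Its log2 fold change of -0.79 (standard error 0.23, 95% interval -1.33 to -0.26) was the one among the 9 whose interval left out 0, but its adjusted p was 0.666, from an unadjusted p of 0.00897 that ranked 277th of all genes tested (edgeR quasi-likelihood, Benjamini-Hochberg). The log2 fold change was -0.66 without mock control replicate 3, with an adjusted p of 0.26 from the same test, and it ran from -0.86 to -0.66 when single libraries were dropped.

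*dlx2a* (ENSDARG00000079964, minus strand of chromosome 9, 3425857 to 3429216) encodes a homeodomain factor of the crest cells that fill the pharyngeal arches, and of the forebrain. The mock control libraries held 38.6, 36.4 and 49.9 CPM and the crispant libraries 29.4, 35.7 and 23.8 CPM. The groups did not overlap, although crispant replicate 2 came within 1 CPM of mock control replicate 2. The log2 fold change was -0.49 (standard error 0.23, 95% interval -1.03 to 0.05) with an adjusted p of 0.962 (edgeR quasi-likelihood, Benjamini-Hochberg). Without mock control replicate 3 it was -0.33, and groups already apart could not come to overlap. Of all genes tested, 29.4% had groups apart without that library.

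*sox10* (ENSDARG00000077467, plus strand of chromosome 3, 2013057 to 2022138) encodes the SoxE factor needed for the pigment, neuronal and glial fates of the crest, and is also on in the ear. It was at 27.8, 27.2 and 18.7 CPM in the mock control libraries and at 33.6, 32.8 and 30.6 CPM in the crispants. Every crispant library was above every mock control library, with means of 24.5 ± 5.07 CPM in mock controls and 32.3 ± 1.54 CPM in crispants (SD, n = 3 each). The log2 fold change was 0.40 (standard error 0.23, 95% interval -0.12 to 0.91) with an adjusted p of 0.999 (edgeR quasi-likelihood, Benjamini-Hochberg). Without mock control replicate 3 the log2 fold change was 0.25. Groups that lie apart with all 6 libraries cannot come to overlap when 1 is dropped. The log2 fold change of *sox10* was above 0 under all 15 alternatives tried, which refit the same libraries. Those of *dlx2a*, *phox2bb*, *sox9b*, *tfap2a* and *twist1a* likewise kept their sign, below 0, in all 15.

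Paired factors of the same SoxE group are *sox9a* and *sox9b*, the zebrafish copies of the gene for the cartilage and crest factor Sox9. *sox9a* (ENSDARG00000003293, minus strand of chromosome 12, 1927596 to 1931236) had 31.3 and 32.0 CPM in mock control replicates 1 and 2 but 8.05 CPM in replicate 3, and 24.4, 25.4 and 27.0 CPM in the crispants. Mock control replicate 3 thus held a level 74.5% below that of the other mock libraries, a deviation of -1.97 on the log2 scale, and 10.1% of all genes deviated as far down in that library. That library decided the direction. With it, the log2 fold change was 0.11 (standard error 0.46, 95% interval -0.94 to 1.15). Without it, it was -0.29 (standard error 0.16, 95% interval -0.66 to 0.07), with an adjusted p of 0.55 (edgeR quasi-likelihood, Benjamini-Hochberg). All crispant libraries were then below both mock libraries, as was the case for 15.2% of all genes tested without that library. With all 6 libraries the groups overlapped. *sox9b* (ENSDARG00000043923, minus strand of chromosome 3, 62341796 to 62348451) had overlapping groups, at 80.3, 50.0 and 63.0 CPM against 53.2, 62.7 and 45.6 CPM. Its log2 fold change was -0.26 with and without mock control replicate 3 (95% interval -0.79 to 0.28 with all 6 libraries). It depended on the other mock libraries, at -0.07 without mock control replicate 1 and -0.41 without mock control replicate 2.

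*tfap2a* (ENSDARG00000059279, minus strand of chromosome 24, 8581299 to 8592141) encodes an AP-2 factor that acts early in crest induction and is also found in the epidermis. Its standard error of 0.18 was the smallest of the 9, and it was at 132.3, 128.5 and 147.1 CPM in mock controls and 114.5, 127.1 and 144.1 CPM in crispants. The groups overlapped. The log2 fold change of -0.08 had a 95% interval from -0.50 to 0.34, so that a change as large as the threshold lies outside it in either direction. It was -0.0044 without mock control replicate 3.

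The genes of the epithelial to mesenchymal transition are *snai1b* and *snai2*, which encode zinc finger repressors of the Snail family, and *twist1a*, which encodes a basic helix-loop-helix factor of crest and mesoderm. *snai2* (ENSDARG00000040046, plus strand of chromosome 24, 35501020 to 35507036) was at 41.6, 47.4 and 32.7 CPM in mock controls and 36.1, 50.3 and 44.1 CPM in crispants, with a log2 fold change of 0.10 (95% interval -0.42 to 0.62). *snai1b* (ENSDARG00000046019, minus strand of chromosome 23, 2567005 to 2573963) was the least counted, at 6.15, 8.99 and 3.29 CPM against 4.21, 6.10 and 6.53 CPM. Its interval was wide, -1.08 to 0.82 around a log2 fold change of -0.13, and a change of the size of the threshold was not excluded on the lower side. For both genes the groups overlapped and mock control replicate 3 was the lowest library. Without it the log2 fold change was -0.02 for *snai2* and -0.42 for *snai1b*. *twist1a* (ENSDARG00000030402, minus strand of chromosome 19, 2397417 to 2399443) was highest in that same library, at 20.6, 27.6 and 40.8 CPM in mock controls against 23.0, 25.0 and 19.4 CPM in crispants. Its log2 fold change of -0.40 (95% interval -1.05 to 0.25) shrank to -0.09 when that library was left out.

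**Figure D2:**
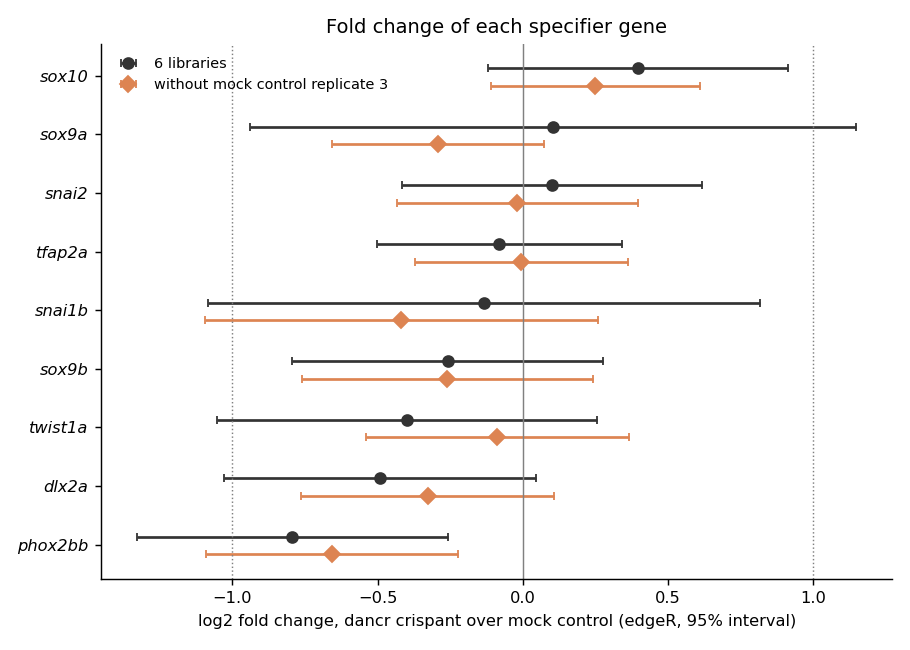
Log2 fold change of crispants over mock controls for each specifier gene (edgeR), with all 6 libraries as circles and without mock control replicate 3 as diamonds, bars being 95% intervals and dotted lines the minimum fold change for a call. The interval for *phox2bb* leaves out 0 in both fits, and *sox9a* and *snai2* change sign when mock control replicate 3 is left out.

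*foxd3* (ENSDARG00000021032) encodes a forkhead factor of premigratory crest cells and is listed at 0 counts in all 6 libraries. Its record, on the minus strand of chromosome 6 from 32105118 to 32106916, shares 1763 of its 1799 bases with a pseudogene record on the same strand, BX664614.1, from 32105119 to 32106881, which was at 0 in every library too. A count of 0 allows up to 3 counts, or 0.0728 to 0.105 CPM per library, counting error only, and limits the reads given to this record rather than the transcript. How reads that fall in 2 records were treated is not given in the sources used here. In the whole table, 1362 of 25465 protein coding genes were at 0 in every library. Among the 70 protein coding genes that shared at least 90% of both spans with another record on the same strand, 10 were at 0, or 14.3%, against 5.32% of the others. By its spans and its counts *foxd3* itself belongs to the 70 and to the 10. Whether the shared record bears on the 0 of *foxd3* was not tested, and no comparison of *foxd3* was made.

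Levels can be compared between genes only per length. On the authors' FPKM scale the most abundant specifier gene was *tfap2a*, at 45.1 ± 2.78 FPKM in mock controls and 42.6 ± 4.73 FPKM in crispants (SD, n = 3 each), above every other member in every library. *twist1a*, *dlx2a*, *sox9b*, *snai2* and *sox9a* followed in this order of means in both groups, from 25.4 down to 13.1 FPKM in mock controls and from 19.3 down to 14.0 FPKM in crispants, and the ranges of neighbours in this order overlapped. At the lower end the order differed. In mock controls *phox2bb*, at 9.82 ± 1.29 FPKM (SD, n = 3), came before *sox10*, at 7.55 ± 1.62 FPKM (SD, n = 3), and their ranges did not overlap. In crispants *sox10*, at 9.95 ± 0.516 FPKM (SD, n = 3), came before *phox2bb*, at 5.67 ± 0.741 FPKM (SD, n = 3), again with ranges apart. *snai1b* was last in both groups, at 5.55 ± 2.62 and 5.05 ± 1.096 FPKM (SD, n = 3 each).

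A ratio of 2 genes within a library does not depend on how libraries are scaled, and was computed on counts per base for 6 pairs of related genes. None of the 6 ratios had groups that lay apart, and 3 libraries against 3 cannot give an exact two-sided permutation p below 0.1. With all 6 libraries the largest difference was in *snai1b* over its paralogue *snai1a*, although that of *sox9b* to *sox9a* was larger when mock control replicate 1 or 2 or crispant replicate 1 was dropped. The ratio of *snai1b* to *snai1a* was 0.572, 0.574 and 0.330 in mock controls and 0.215, 0.275 and 0.373 in crispants. Its log2 ratio was lower by a mean difference of -0.77 (exact permutation p = 0.2, adjusted p = 0.84 over the 6 pairs), and 2 of 3 crispant libraries were below all mock libraries. Counts of *snai1a* itself were higher in all crispants than in all mock controls, at 36.7, 41.6 and 32.8 CPM against 20.1, 29.3 and 18.7 CPM. The log2 fold change of *snai1a* was 0.70 (standard error 0.24) with an adjusted p of 0.743 (edgeR quasi-likelihood, Benjamini-Hochberg). The record of *snai1a* shares 574 bases with *tp53inp2* on the opposite strand, whose log2 fold change was -0.75, and whether the counting used strand is not given in the sources used here. The ratio of *sox9b* to *sox9a* was 1.31, 0.801 and 4.003 in mock controls and 1.12, 1.26 and 0.867 in crispants. Mock control replicate 3 alone set the difference of -0.59 in its log2 ratio, which was 0.06 without that library. For *snai2* to *snai1b*, *twist1a* to *twist1b*, *dlx2a* to *dlx2b* and *tfap2a* to *tfap2c* the differences in log2 ratio were 0.14, 0.13, 0.02 and 0.08, with exact permutation p from 0.7 to 1.

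**Figure D3:**
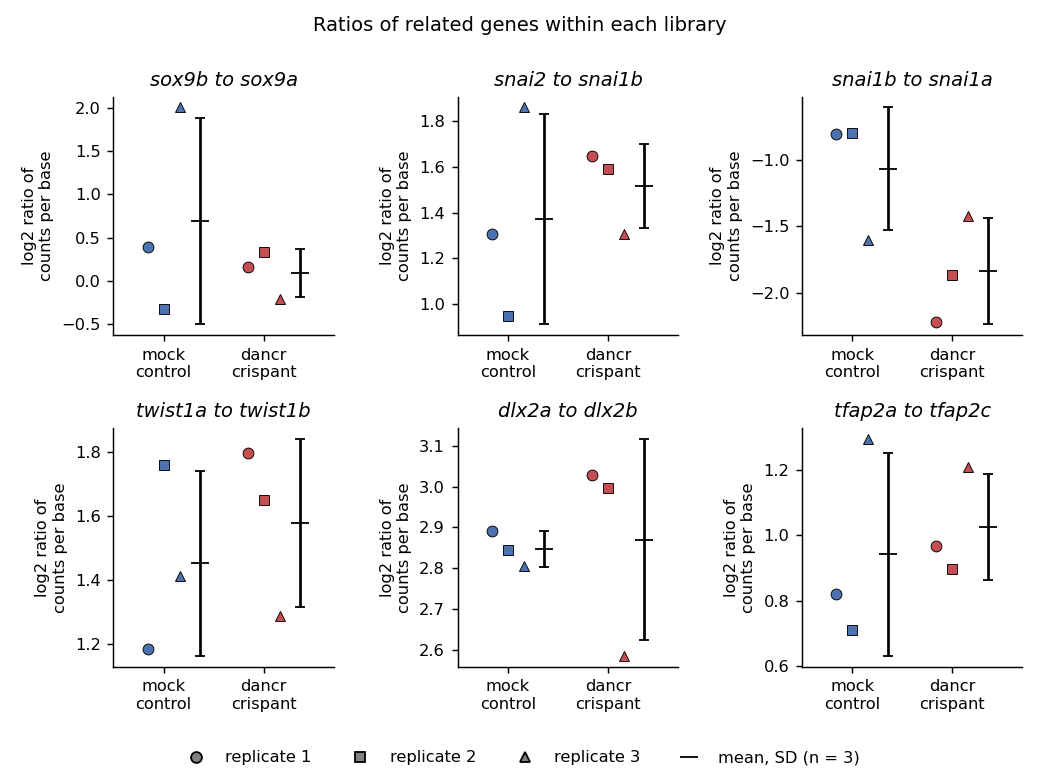
Log2 ratio of counts per base for 6 pairs of related genes, 1 point per library, with the mean and SD of 3 libraries. The axes do not start at 0 because the values are log ratios, and in the panel of *sox9b* to *sox9a* mock control replicate 3, at 2.00, lies above all other libraries.

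The paralogues of the specifier families were 17 records, of which 14 were tested and 0 were called. Their median log2 fold change was -0.42, with 4 above 0, and -0.22 without mock control replicate 3. Records of *phox2ba*, *sox8a* and an antisense record also named *tfap2b* had too few counts to test. The main *tfap2b* record, which that antisense record overlaps on the other strand, was at 16.8, 12.1 and 16.9 CPM in mock controls and 8.47, 10.5 and 10.05 CPM in crispants, with a log2 fold change of -0.66 and groups apart. *dlx2b* and *twist1b* also had groups apart on the lower side, at -0.53 each, or -0.34 and -0.18 without mock control replicate 3. Of the 14, 4 had groups apart on that side, beside 5.44% of all genes tested, and not all of them are reported here. For *snai3*, *twist2*, *twist3*, *tfap2c*, *tfap2d*, *tfap2e*, *sox8b*, *foxd1* and *foxd2* the groups overlapped, with log2 fold changes from -1.27 for *tfap2d* to 0.44 for *sox8b*. Without mock control replicate 3 that of *sox8b* was -0.07 and that of *tfap2e* went from -0.64 to 0.09. All 8 *dlx* genes in the lists, *dlx2a* included, had a log2 fold change below 0 with and without mock control replicate 3. The medians were -0.65 and -0.33. Groups lay apart on the lower side for 5 of them, beside 5.44% of all genes tested. This grouping was made after their values were seen, and 3 of these genes also lie in the brain list.

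Around the specifiers, lists of crest genes written from general knowledge held no call by edgeR or DESeq2. Some genes sit in several lists, among them *dlx3b*, *dlx4b*, *ednraa*, *hand2* and *dlx1a*, so the tallies of the lists are not independent. Over all genes tested, 45.54% had a log2 fold change above 0, or 51.15% without mock control replicate 3. Of 17 neural plate border genes, 4 had a log2 fold change above 0, and the median was -0.20. *prdm1a*, a repressor needed early in the crest and for sensory neurons, was at 48.5, 51.3 and 39.3 CPM in mock controls and 66.9, 89.4 and 63.8 CPM in crispants, which lay apart, at a log2 fold change of 0.66 (standard error 0.21). *dlx4b* overlapped at a log2 fold change of -0.83, or -0.41 without mock control replicate 3, its highest library. Among 21 other premigratory and migratory crest genes, 9 were above 0 and the median was -0.09, which was 0.06 without mock control replicate 2. There the smallest p-values belonged to the chemokine receptor genes *cxcr4b* and *cxcr4a*, at -0.53 and -0.65, and to the cadherin gene *cdh11*, at -0.35. They were at -0.39, -0.30 and -0.46 without mock control replicate 3. The row of *crestin*, a crest marker, was not found by name or identifier and is not analysed here.

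The 31 tested pharyngeal arch and cartilage genes had a median log2 fold change of -0.25, and -0.10 without mock control replicate 3. Of them, 9 were above 0 and 6 were lower with groups apart, beside 45.54% and 5.44% of all genes tested. *dlx1a*, the neighbour of *dlx2a* in arches and forebrain, was at 15.3, 13.9 and 19.9 CPM in mock controls and 10.5, 10.4 and 5.73 CPM in crispants, at a log2 fold change of -0.88 (standard error 0.32). *dlx4a* and *barx1*, a homeobox gene of arch crest, had larger values of -1.54 and -1.42, which became -0.74 and -0.64 without mock control replicate 3, the highest library for both. *col2a1a*, the type II collagen gene of cartilage and notochord that Sox9 factors switch on, overlapped at a log2 fold change of -0.06 (standard error 0.40).

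Genes of enteric, sympathetic and visceral neurons, the fates in which *phox2bb* acts, had 4 of 19 above 0 and a median log2 fold change of -0.25, and -0.28 without mock control replicate 3. *insm1a*, a zinc finger gene of newborn neurons and endocrine cells, was at 80.4, 66.3 and 75.9 CPM in mock controls and 40.5, 39.2 and 37.3 CPM in crispants. Its log2 fold change was -0.93 (standard error 0.18, adjusted p = 0.33, edgeR quasi-likelihood, Benjamini-Hochberg). *ascl1a*, a proneural gene of sympathetic and central neurons, was at -0.94 and *insm1b* at -0.85, both with groups apart. *ret*, which encodes the receptor that guides enteric crest cells, was at 27.7, 23.1 and 26.6 CPM in mock controls and 18.2, 13.7 and 18.7 CPM in crispants, and its groups lay apart at a log2 fold change of -0.61 (standard error 0.23). It was picked after its values were seen. The 4 genes above 0 were *slc6a2*, *gfra1a*, *gata3* and *gdnfa*, at 0.51, 0.50, 0.14 and 0.08, all with overlapping groups. *gdnfa* was at -0.31 without mock control replicate 3. The markers of differentiated sympathetic neurons *th* and *dbh* overlapped, at -0.30 and -0.27, or -0.12 and -0.41 without mock control replicate 3. These genes are also active in the central nervous system. The 22 brain and hindbrain markers had a median of -0.47, and -0.28 without mock control replicate 3. Of them, 4 were above 0 and 7 were lower with groups apart, beside 45.54% and 5.44% of all genes tested. Their summed level was 1042, 1082 and 1558 CPM in mock control replicates 1, 2 and 3, so that replicate 3 alone set the upper end. It was 998.8, 931.8 and 848.7 CPM in crispants. None of these markers was at 0. Their part in the values of *phox2bb* and *dlx2a* was not tested.

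Sensory neuron and glial genes were likewise mostly below 0, with a median of -0.31 over 23 tested genes and 6 above 0. Of the 23, 6 were lower with groups apart, beside 5.44% of all genes tested. The 3 with the smallest p were *neurod4*, *plp1a*, a myelin protein gene, and *prdm12b*, at -0.83, -0.95 and -0.77. Of 14 pigment cell genes listed from general knowledge as targets of Sox10, 4 were above 0 and the median was -0.17. Whether Sox10 acts on each of them, directly or through other factors, was not tested. Whole embryos do not show which cells these counts came from, of the crest or not. *mitfa*, the melanocyte master gene, was at 10.4, 12.9 and 18.1 CPM in mock controls and 12.1, 10.2 and 13.8 CPM in crispants, and its groups overlapped at a log2 fold change of -0.19 (standard error 0.29), which was 0.07 without mock control replicate 3. The pigment enzyme gene *dct* and the melanosome gene *pmela* had log2 fold changes of -1.04 and -0.83 with overlapping groups, or -0.73 and -0.55 without mock control replicate 3, and *pnp4a*, a gene of iridophores, lay apart at -0.54. The median of this list depended on single libraries. It was -0.39 without mock control replicate 3, 0.0097 without crispant replicate 2 and -0.54 without crispant replicate 3.

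Markers of other tissues of the embryo, only some of which also express specifier genes, held no call by edgeR. DESeq2 called *krtt1c19e* and *lyz*, both lower. Ear markers, from a tissue that expresses *sox10* and *sox9* genes, had a median log2 fold change of -0.13, with 4 of 13 above 0, and -0.03 without mock control replicate 3. The otoconial gene *oc90* was at 69.6, 79.1 and 67.7 CPM in mock controls and 148.8, 147.0 and 131.7 CPM in crispants, at 0.98 (standard error 0.18, adjusted p = 0.283, edgeR quasi-likelihood, Benjamini-Hochberg). The otolith gene *stm* lay apart on the higher side too, at 0.38, while *tectb* overlapped at -0.69, or -0.13 without mock control replicate 3. The summed level of the 13 ear markers was 343.1 to 387.0 CPM in mock controls and 413.4 to 467.0 CPM in crispants. Without *oc90* the other 12 ear markers summed to 273.6 to 319.3 CPM and 273.1 to 319.9 CPM, which overlapped. None was at 0 in any library, and their part in the *sox10* values was not tested. For the 14 epidermis markers, a tissue that expresses *tfap2a*, the median was -0.11, and 0.11 without mock control replicate 3. *krtt1c19e* was lower at -1.57 (adjusted p = 0.576 by edgeR and 0.0346 by DESeq2) and the E-cadherin gene *cdh1* higher at 0.55, both with groups apart, and *krt91* overlapped at -1.39. Without mock control replicate 3, the highest library for both keratin genes, *krtt1c19e* was at -0.92 and *krt91* at -0.29. Somite and skeletal muscle markers had a median of -0.45 over 16 genes with 3 above 0, where *myf5*, at -0.62, lay apart and *mylpfa* and *tpma*, at -0.89 and -0.73, did not. The median was -0.24 without mock control replicate 3, where *mylpfa* and *tpma* were both at -0.26. The 9 notochord and floor plate markers had a median of 0.06, with *foxj1a*, a gene of ciliated cells, apart at 0.99, and *noto* and *shhb* overlapping at 0.51 and -0.39, or 0.86 and -0.14 without mock control replicate 3. That median was -0.0036 without crispant replicate 1 and -0.13 without crispant replicate 2. The lowest median, -0.85 over 12 genes with 2 above 0, belonged to blood and endothelium markers and was -0.41 without mock control replicate 3. There the myeloid genes *lyz* and *mpx* lay apart at -2.14 (adjusted p = 0.479 by edgeR and 0.00334 by DESeq2) and -1.05. A record of *hbbe1.1*, named for its small p, overlapped at -1.46. These 3 values were -1.43, -0.96 and -0.61 without mock control replicate 3. Values of any further *hbbe1.1* record are not reported here.

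**Figure D4:**
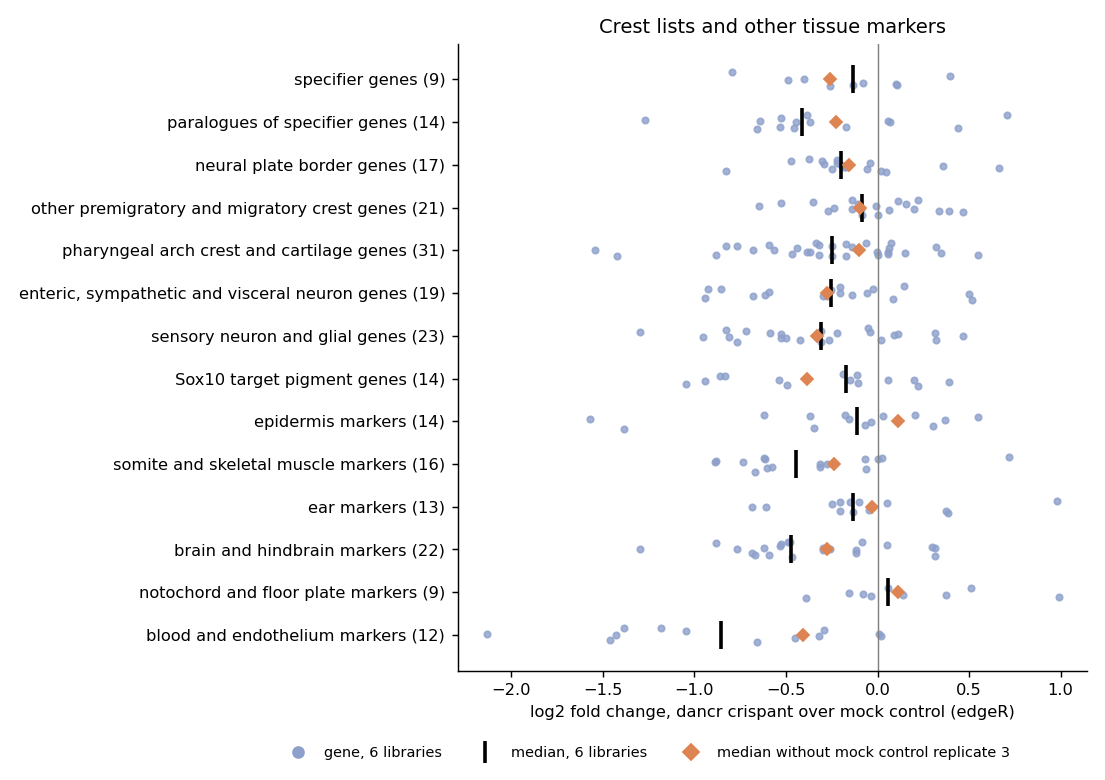
Log2 fold change of crispants over mock controls (edgeR) for every tested gene of each list, with the number tested in brackets. Bars mark the median with all 6 libraries and diamonds the median without mock control replicate 3. The medians of the specifier genes, -0.13 and -0.26, lie among those of the other lists.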

How the data were processed

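PolyA selected, strand-specific libraries of whole embryos were aligned by the authors to GRCz10/danRer10 with HISAT2. The deposited table holds raw counts per gene, not normalized, and the authors' FPKM values, which divide counts by gene length and by a library total that carries 1 scaling factor per library. The counting tool, versions and annotation release are not given in the sources used here. Columns of the authors' own DESeq2 comparison (group means, fold changes, p-values) were not used, and 0 columns per library were left over.

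Counts were tested with edgeR 4.0.16 in R 4.3.3 (TMM, glmQLFit, glmQLFTest, filterByExpr at a minimum count of 10) on 6 libraries with no covariate. Standard errors and 95% intervals were derived from the F statistic. DESeq2 1.42.0, limma-voom 3.58.1 and the other alternatives are covered in the closing section. The edgeR, DESeq2 and limma-voom fits were tested on simulated counts with the main filter. There edgeR and limma-voom used the main scaling and DESeq2 its own size factors. No simulated library had an expression profile apart from its group, as mock control replicate 3 had in the data. The other alternatives, the ratios with their permutation test and the list summaries were not. Depth was 33841805 to 40515803 counts per library.

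The text names the specifier genes, their family paralogues, the 3 genes with the smallest p in each of the other lists, and *mitfa*. A few of these results are not reported here. *ret*, *th*, *dbh*, *slc6a2*, *gfra1a*, *gata3*, *gdnfa*, *col2a1a* and *tp53inp2* were added after their values were seen. The 13 lists besides the specifier genes held 237 entries, 7 of them not found. Members and lists were chosen with earlier results of these data known. Same-numbered libraries did not deviate together, so numbers were not used as pairs. The methods call the replicates biological, and p-values measure the spread between pools of embryos. Gene names are the table's, and all 10 specifier identifiers were in the reference name table.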

Additional observations from a re-analysis of the deposited data

How the results depend on the processing

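The number of specifier genes called was 0 under every alternative run, and the number of all genes called was 0 with edgeR on 6 libraries, under DESeq2's size factors, a mean of at least 10 counts, robust empirical Bayes, limma-voom, no minimum fold change and the replicate block. It was 2 with no filter on low counts, 160 with DESeq2, 0 to 20 when single libraries were dropped (20 for mock control replicate 3, 1 for mock control replicate 1), 324 with limma-voom and sample quality weights, and 301 with DESeq2 and mock control replicate 3 left out, the last 2 chosen after seeing the data. For *phox2bb* the adjusted p ran from 0.0675 to 1 over 15 alternatives (edgeR, DESeq2 and limma-voom, each with Benjamini-Hochberg adjustment).

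The log2 fold change of *sox9a* turned to -0.31 with limma-voom and sample quality weights, -0.29 without mock control replicate 3 and -0.30 with DESeq2 without it, and ran from -0.29 to 0.38 with each library left out. That of *snai2* turned to -0.208, -0.0193 and -0.0278 in the same 3 fits, with a range of -0.0193 to 0.226. That of *snai1b* turned to 0.25 when mock control replicate 2 was dropped and 0.0368 for crispant replicate 1, with a range of -0.42 to 0.25, and was -0.76 with limma-voom and sample quality weights (adjusted p = 0.15, Benjamini-Hochberg). The differences in log2 ratio turned to 0.0603 for *sox9b* to *sox9a* without mock control replicate 3 (range with single libraries dropped -1.101 to 0.0603), -0.0685 for *snai2* to *snai1b* without mock control replicate 2 (-0.0685 to 0.389) and -0.00623 for *twist1a* to *twist1b* without mock control replicate 1 (-0.00623 to 0.280). For *tfap2a* to *tfap2c* they turned to -0.0334 when mock control replicate 2 was dropped and -0.00902 for crispant replicate 3 (-0.0334 to 0.259). For *dlx2a* to *dlx2b* they turned to -0.0616 on log2(CPM + 1), and to -0.0557 and -0.0405 when crispant replicate 1 or 2 was dropped (-0.0557 to 0.166). Beyond the library left out, the cause was not tested. The correlations of same-numbered libraries were 0.248, -0.0884 and -0.18, and the replicate block changed no call. Each interval rests on 3 libraries per group, and the specifier genes tested had 94 to 5938 counts in a library.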
